A study of Mus musculus with 2 samples.

Results

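The genes described here are 30 components of the lysosome, the acidic compartment in which cells break down material taken up from outside or delivered by autophagy. They were chosen by name, not by a measured value, from the 32285 genes of the count tables. Their roles fall into 5 groups: 8 membrane proteins, 7 glycosidases, 7 lipid hydrolases and activators of lipid breakdown, 4 proteases and secreted lysosomal glycoproteins, and 4 genes of transport, acidification and transcriptional control. The other lysosome genes used for comparison number 81.

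The data came from dissociated whole brains of 6-month-old mice, profiled by droplet-based single-cell RNA sequencing that tags the 3' ends of transcripts. The groups are Fit2-Mut and Fit2-WT, with 1 library each, and both carry APP-KI, a knock-in of the amyloid precursor protein gene used as a model of Alzheimer's disease. The study asked how brain cells differ when Fit2 is disrupted in macrophages. The labels give neither the number of animals behind each library, nor the driver that restricts the disruption, nor the altered part of the gene.

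Lysosomal enzymes are made in the endoplasmic reticulum, carry sugar tags that route them to the lysosome, and work there at low pH that a proton pump maintains. The membrane proteins LAMP1 and LAMP2 line the limiting membrane, and inherited loss of many of the enzymes causes storage disease that often damages the brain. In the brain, microglia are the resident phagocytes, and their lysosomes take up debris, dying cells and amyloid. The transcription factor TFEB, itself among the 30, binds an E-box sequence in promoters of many lysosomal genes and raises their transcription.

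The Fit2-Mut library held 63234140 unique molecular identifiers (UMIs, the counted molecules) and the Fit2-WT library 52491901. After filtering, 5824 Fit2-Mut cells with a median of 7376 UMIs and 5209 Fit2-WT cells with a median of 6817 UMIs remained, and 10 passing barcodes occurred in both libraries. Cells fell into 28 clusters, made without any of the 30 genes or the other lysosome genes, and 14 cell types were named from markers that include no member. In each named type, every marker of its list was at least 2-fold above the other cells in both libraries. The same markers at the same fold had named the clusters, so this is not a separate check of the names. Fitm2, the mouse name of Fit2, had 1 UMI in the Fit2-Mut microglia-like cells and 17 UMIs in the Fit2-WT ones, although a 3' tag may lie outside the altered part of the gene. With 1 library per genotype there is no replicate check and no p-value. Levels are given as counts scaled to 1000000 UMIs of the same cells (CPM), with 95% exact intervals that cover counting error only, and a fold of 1.5 either way was the size rule for differences between the libraries.

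The E-box that TFEB and its relatives recognise, CACGTG, was looked up in the promoter windows of RefSeq on GRCm38.p6, which run from 250 bases before to 50 bases after each transcription start. The motif reads the same on both strands. Of the 28 members with a window, 7 held it (25%), against 7.15% of all 32851 windows and 8.09% of the 27025 genes with a window. Of the other lysosome genes, 19 of 61 with a window held it. The longer form TCACGTGA, which contains the E-box, was in 2 of 28 members, Gla and Mcoln1, and in 0.974% of all windows (1.12% of genes). Laptm4b and Asah1 had no window. The stretches around the motif are printed here because the levels of these members are compared below; capitals mark each CACGTG, and the strand is that of the gene. Lamp1 held 4 copies in chr8:13159088-13159160 (plus strand), Gla held 2 in chrX:134601182-134601244 (minus strand) and Mcoln1 held 2 in chr8:3500436-3500491 (plus strand). The windows of Glb1 at chr9:114401018-114401047 (plus), Naglu at chr11:101070009-101070038 (plus), Arsa at chr15:89477425-89477452 (minus) and Lgmn at chr12:102439124-102439153 (minus) held 1 copy each. All 7 stretches lie upstream of the annotated start. A match is a description of the letters and says nothing of whether a factor binds there.
Lamp1: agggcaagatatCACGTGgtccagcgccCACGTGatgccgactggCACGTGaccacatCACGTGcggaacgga
Gla: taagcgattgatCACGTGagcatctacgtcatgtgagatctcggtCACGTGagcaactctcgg
Mcoln1: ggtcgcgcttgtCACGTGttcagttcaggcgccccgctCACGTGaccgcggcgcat
Glb1: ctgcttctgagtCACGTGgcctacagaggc
Naglu: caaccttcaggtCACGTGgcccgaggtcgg
Arsa: tcaactcagtgtCACGTGttgtctgctc
Lgmn: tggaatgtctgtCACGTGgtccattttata

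Together the 30 genes took the largest share of UMIs in microglia-like cells of both libraries, at 1.44% in Fit2-Mut and 1.49% in Fit2-WT. Border-associated macrophage-like cells, a cluster in which the monocyte genes Plac8 and Chil3 were also high, followed with 1.05% in Fit2-Mut and 0.790% in Fit2-WT. B cell-like cells had 0.995% in Fit2-Mut and 0.499% in Fit2-WT, but the median cell had only 0.406% in Fit2-Mut and 0.153% in Fit2-WT. Microglia marker counts moved with these values: 56.5% of Fit2-Mut and 21.1% of Fit2-WT B cell-like cells held at least 3 UMIs of the 10 microglia markers. Among border-associated macrophage-like cells the same share was 76.9% in Fit2-Mut and 70.7% in Fit2-WT, and among neutrophil-like cells 21.3% in Fit2-Mut and 8.57% in Fit2-WT. Whether these UMIs came from microglia or from the cells' own expression was not tested. How far RNA from microglia sets the levels of the members in those 3 types was not tested either.

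Outside the phagocytes, the summed share was 0.400% in Fit2-Mut and 0.398% in Fit2-WT oligodendrocyte-like cells. It was 0.354% and 0.350% in Fit2-Mut ependymal-like and choroid plexus-like cells, against 0.347% and 0.335% in the same types of Fit2-WT. The lowest share was that of neuroblast-like cells, 0.104% in Fit2-Mut and 0.0974% in Fit2-WT. T cell-like cells had 0.135% in Fit2-Mut and 0.133% in Fit2-WT, and neuron-like cells 0.183% in Fit2-Mut and 0.130% in Fit2-WT. Summed over the members, microglia-like cells therefore stood above every other named type in both libraries.

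**Figure D1:**
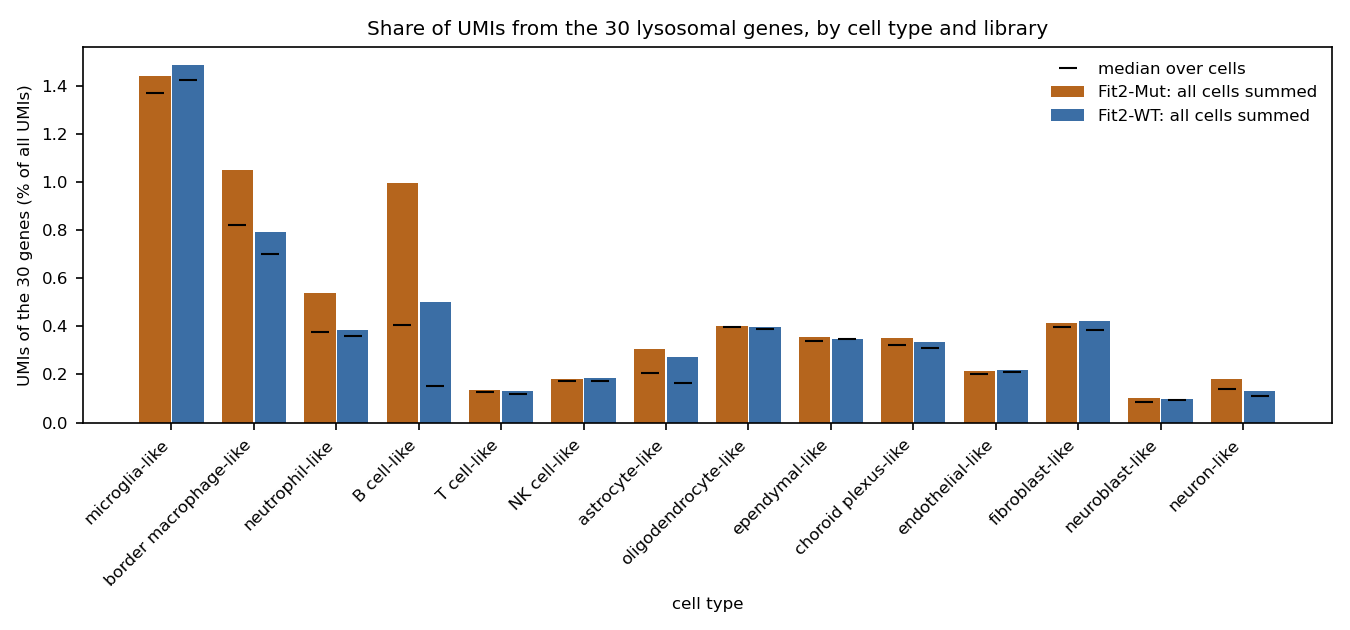
Share of all UMIs that came from the 30 genes (vertical axis, percent) in each cell type, with Fit2-Mut bars left of Fit2-WT bars and a short line at the median over single cells. Microglia-like cells reach 1.44% in Fit2-Mut and 1.49% in Fit2-WT, and in B cell-like cells the bars stand well above the lines for the median cell.

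Most members were higher in microglia-like cells than elsewhere. A level at least 2-fold above that of all other cells was found for 19 of 30 members in Fit2-Mut and 21 of 30 in Fit2-WT, against 18.9% of 11991 genes in Fit2-Mut and 18.2% in Fit2-WT. The median member was 2.27-fold higher in Fit2-Mut and 2.46-fold higher in Fit2-WT, where the median gene stood at 0.853 and 0.822. Microglia-like cells had the highest level of all 14 types for 13 members in Fit2-Mut and 14 in Fit2-WT, and 13 members were highest there in both: Cd63, Cd68, Laptm5, Hexa, Glb1, Naglu, Gusb, Man2b1, Asah1, Tpp1, Lgmn, Grn and Creg1. The share of all genes that were highest in microglia-like cells was not worked out, so these counts have no background beside them. With B cell-like, border-associated macrophage-like and neutrophil-like cells left out of the order, a setting added after the data were seen, microglia-like cells were highest for 19 members in each library. Leaving types out can only keep or raise that number, so the rise is no added evidence.

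By role, all 7 glycosidases and all 4 proteases and secreted glycoproteins were at least 2-fold higher in microglia-like cells in both libraries. Of the 8 membrane proteins 4 were in Fit2-Mut and 5 in Fit2-WT, and of the 7 lipid genes 4 were in each library. Of the 4 genes of transport, acidification and control, none was in Fit2-Mut and 1, Ctns, was in Fit2-WT. The members divide along these lines into genes with a microglial excess and genes spread over many types, of which Laptm4a, Laptm4b and Smpd1 were lower in microglia-like cells than in other cells of both libraries.

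**Figure D2:**
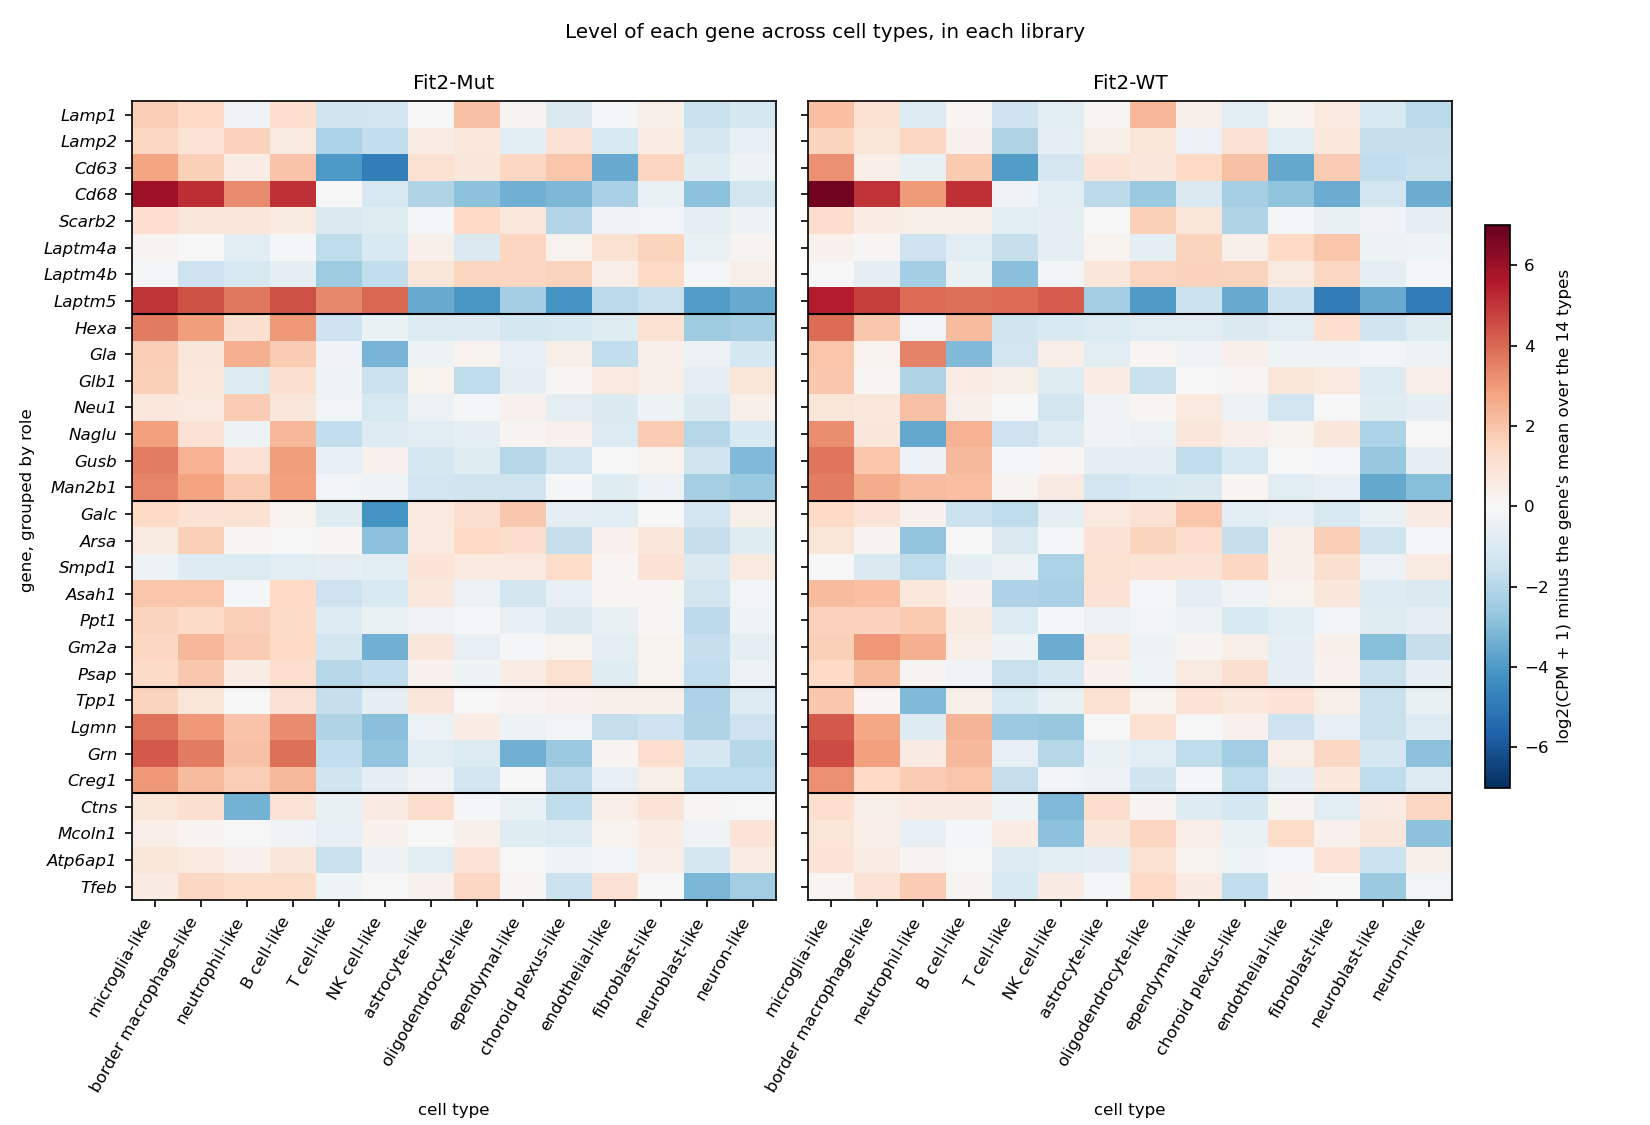
Level of each of the 30 genes across 14 cell types, as log2(CPM + 1) minus the gene's own mean over the types, with Fit2-Mut on the left and Fit2-WT on the right; black lines separate the roles. Cd68 and Laptm5 show the widest contrast between microglia-like and other cells, and most glycosidases and proteases are red in the microglia-like column of both panels.

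Among the membrane proteins, Cd68 (ENSMUSG00000018774), a heavily glycosylated relative of the LAMP proteins found mainly in phagocytes, had 1036 CPM in Fit2-Mut and 1159 CPM in Fit2-WT microglia-like cells. Astrocyte-like cells had 2.96 CPM of it in Fit2-Mut and 2.08 CPM in Fit2-WT. With cells thinned to 1000 UMIs, 53.5% of Fit2-Mut and 64.2% of Fit2-WT microglia-like cells held a Cd68 UMI, against 0.339% of Fit2-Mut and 0.104% of Fit2-WT astrocyte-like cells. Unthinned, the shares in microglia-like cells were 94.1% in Fit2-Mut and 94.4% in Fit2-WT, at median depths of 11295.5 and 9690 UMIs. Laptm5 (ENSMUSG00000028581), which encodes a lysosomal membrane protein of blood-derived cells, was high in lymphocytes as well: T cell-like cells had 468 CPM in Fit2-Mut and 446 CPM in Fit2-WT, and NK cell-like cells 752 CPM in Fit2-Mut and 570 CPM in Fit2-WT. Microglia-like cells had 1491 CPM of Laptm5 in Fit2-Mut and 1377 CPM in Fit2-WT. Laptm5 was thus high in phagocytes and lymphocytes alike and near absent in glia, where oligodendrocyte-like cells had 1.75 CPM of Laptm5 in Fit2-Mut and 0.955 CPM in Fit2-WT. Cd68 did not set lymphocytes apart: T cell-like cells had 14 Cd68 UMIs in Fit2-Mut and 7 in Fit2-WT.

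Cd63 (ENSMUSG00000025351), a tetraspanin of late endosomes and exosomes, was more widely expressed. Its level was 1528 CPM in Fit2-Mut and 1889 CPM in Fit2-WT microglia-like cells, and 880 CPM in Fit2-Mut and 864 CPM in Fit2-WT choroid plexus-like cells. Ependymal-like cells had 620 CPM in Fit2-Mut and 554 CPM in Fit2-WT, whereas endothelial-like cells had 18.7 CPM in Fit2-Mut and 16.7 CPM in Fit2-WT. Epithelium and ependyma therefore shared a high Cd63 level with microglia-like cells, and endothelial-like cells had little.

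Lamp1 (ENSMUSG00000031447), the major structural protein of the lysosomal membrane, was highest in oligodendrocyte-like cells, the myelin-forming glia, with 1615 CPM in Fit2-Mut and 1623 CPM in Fit2-WT. Microglia-like cells came next, with 1276 CPM in Fit2-Mut and 1377 CPM in Fit2-WT, and the 2 types did not overlap in their counting intervals in either library. After thinning, 74.2% of Fit2-Mut and 73.9% of Fit2-WT oligodendrocyte-like cells held a Lamp1 UMI, against 22.6% of Fit2-Mut and 18.9% of Fit2-WT astrocyte-like cells. Scarb2, the receptor that carries glucocerebrosidase to the lysosome, was also highest in oligodendrocyte-like cells, with 200.2 CPM in Fit2-Mut and 217 CPM in Fit2-WT. Choroid plexus-like cells had the least, 16.9 CPM in Fit2-Mut and 14.8 CPM in Fit2-WT.

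Lamp2, needed for fusion of lysosomes with autophagosomes, had similar levels in microglia-like cells (500.3 CPM in Fit2-Mut, 499 CPM in Fit2-WT) and neutrophil-like cells (559 CPM in Fit2-Mut, 453 CPM in Fit2-WT), and those 2 types changed places between the libraries. Laptm4a, a small transmembrane protein of late endosomes, was highest in fibroblast-like cells, at 780 CPM in Fit2-Mut and 878 CPM in Fit2-WT. Its relative Laptm4b peaked in choroid plexus-like cells of Fit2-Mut at 73.9 CPM and in ependymal-like cells of Fit2-WT at 76.7 CPM. Fibroblast-like, choroid plexus-like and ependymal-like cells all held both Laptm4 genes above their level in microglia-like cells, where Laptm4b had 21.9 CPM in Fit2-Mut and 23.8 CPM in Fit2-WT.

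Of the glycosidases, Hexa, the alpha subunit of beta-hexosaminidase that is defective in Tay-Sachs disease, showed the widest excess together with Gusb, which encodes beta-glucuronidase. Hexa had 1164 CPM in Fit2-Mut and 1227 CPM in Fit2-WT microglia-like cells, 12.98-fold and 21.7-fold above the other cells. Gusb had 398 CPM in Fit2-Mut and 364 CPM in Fit2-WT microglia-like cells, 14.1-fold and 19.3-fold above the others. Man2b1, lysosomal alpha-mannosidase, followed at 10.7-fold in Fit2-Mut and 12.3-fold in Fit2-WT, and Naglu, which trims heparan sulfate, at 7.44-fold and 8.78-fold. The folds were smaller in Fit2-Mut for all 4. Among the other cells, the microglia markers summed to 9104 CPM in Fit2-Mut and 3483 CPM in Fit2-WT B cell-like cells. The other cells also include cells of unnamed clusters (460 in Fit2-Mut and 375 in Fit2-WT), with 2444 CPM and 1123 CPM of these markers. The part of those UMIs in the folds was not tested.

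Glb1, lysosomal beta-galactosidase, was 3.53-fold higher in microglia-like cells of Fit2-Mut and 3.76-fold higher in those of Fit2-WT. Gla, alpha-galactosidase A, and Neu1, the lysosomal sialidase, were instead highest in neutrophil-like cells, although on few UMIs. Neutrophil-like cells had 15 Gla UMIs (52.4 CPM) in Fit2-Mut and 25 (95.2 CPM) in Fit2-WT, and 31 Neu1 UMIs in each library (108 CPM in Fit2-Mut, 118 CPM in Fit2-WT). Microglia-like cells had 30.4 CPM of Gla in Fit2-Mut and 31.9 CPM in Fit2-WT.

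The lipid genes were less tied to microglia. Psap (ENSMUSG00000004207), the precursor of the saposins that present sphingolipids to their enzymes, was highest in border-associated macrophage-like cells, with 1588 CPM in Fit2-Mut and 1832 CPM in Fit2-WT. It had 1101 CPM in Fit2-Mut and 1063 CPM in Fit2-WT microglia-like cells, and 910 CPM in Fit2-Mut and 857 CPM in Fit2-WT choroid plexus-like cells. Barcodes with 10 to 100 UMIs, which read RNA free in the suspension, had 771 CPM of Psap in Fit2-Mut and 721 CPM in Fit2-WT. Gm2a, the activator protein for ganglioside breakdown, was likewise highest in border-associated macrophage-like cells, at 395 CPM in Fit2-Mut and 587 CPM in Fit2-WT, and second in neutrophil-like cells, at 272 CPM in Fit2-Mut and 404 CPM in Fit2-WT.

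Asah1, acid ceramidase, had 280.0 CPM in Fit2-Mut and 258 CPM in Fit2-WT microglia-like cells, with border-associated macrophage-like cells close behind at 276 CPM in Fit2-Mut and 239 CPM in Fit2-WT. Ppt1, a thioesterase that removes palmitate from proteins, had 241 CPM in Fit2-Mut and 255 CPM in Fit2-WT neutrophil-like cells, near its microglial levels of 225 CPM in Fit2-Mut and 219 CPM in Fit2-WT. Galc, which degrades the myelin lipid galactosylceramide, peaked in ependymal-like cells (66.8 CPM in Fit2-Mut, 71.3 CPM in Fit2-WT) and not in oligodendrocyte-like cells, which had 39.9 CPM in Fit2-Mut and 37.0 CPM in Fit2-WT.

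Smpd1, acid sphingomyelinase, was highest in choroid plexus-like cells, at 85.4 CPM in Fit2-Mut and 80.6 CPM in Fit2-WT, and microglia-like cells had 27.4 CPM in Fit2-Mut and 27.7 CPM in Fit2-WT. Arsa, which desulfates the myelin lipid sulfatide, was low throughout. Oligodendrocyte-like cells had 17.9 CPM of Arsa in Fit2-Mut and 19.2 CPM in Fit2-WT, and choroid plexus-like cells 1.39 CPM in Fit2-Mut and 1.19 CPM in Fit2-WT. Of the 7 lipid genes, only Asah1 was highest in microglia-like cells.

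The proteases and secreted glycoproteins were the most uniformly microglial group. Lgmn (ENSMUSG00000021190), legumain, which cuts after asparagine, had 1550 CPM in Fit2-Mut and 1442 CPM in Fit2-WT microglia-like cells, and 75.9% and 72.9% of thinned cells held a UMI of it. Grn (ENSMUSG00000034708), progranulin, whose loss causes a lysosomal disease of the brain, had 1011 CPM in Fit2-Mut and 1086 CPM in Fit2-WT, 16.7-fold and 30.6-fold above the other cells. Creg1, a secreted glycoprotein that reaches lysosomes, had 786 CPM in Fit2-Mut and 851 CPM in Fit2-WT. Tpp1, a peptidase defective in a childhood neuronal storage disease, was the least microglial of the 4, at 2.29-fold in Fit2-Mut and 2.35-fold in Fit2-WT.

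In the last group the folds of microglia-like over other cells were small, from 1.18 to 1.76 in Fit2-Mut and from 1.10 to 2.41 in Fit2-WT. Atp6ap1, an accessory subunit of the proton pump, had 165 CPM in Fit2-Mut and 171 CPM in Fit2-WT oligodendrocyte-like cells, and 158 CPM in microglia-like cells of each library. Tfeb (ENSMUSG00000023990) had 57.6 CPM in Fit2-Mut and 66.7 CPM in Fit2-WT oligodendrocyte-like cells, and 31.0 CPM in Fit2-Mut and 28.1 CPM in Fit2-WT microglia-like cells. Its highest types were border-associated macrophage-like cells in Fit2-Mut (58.5 CPM) and neutrophil-like cells in Fit2-WT (87.6 CPM). Neuroblast-like cells had the least, 1.37 CPM in Fit2-Mut and 3.26 CPM in Fit2-WT. Mcoln1, the calcium channel TRPML1 of the lysosomal membrane, and Ctns, the cystine exporter, stayed at or under 22.7 CPM in every type of both libraries. For those 2 genes the highest type differed between the libraries, and the free RNA had 17.7 CPM of Mcoln1 and 17.4 CPM of Ctns in Fit2-Mut, against 11.02 CPM and 13.6 CPM in Fit2-WT. The low counts do not settle which type is highest for either gene.

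Microglia-like cells fell into 4 clusters, which differ in their share of members. The largest, with 336 Fit2-Mut and 303 Fit2-WT cells, was named plaque-associated from a list of genes known from microglia at amyloid plaques, and Spp1 and Lpl led it. A homeostatic cluster led by Tmem119 held 104 Fit2-Mut and 103 Fit2-WT cells. Another cluster, unnamed, was low in the nuclear RNA Malat1 (117 Fit2-Mut and 140 Fit2-WT cells), and a cycling cluster held 19 Fit2-Mut and 4 Fit2-WT cells. The 30 genes summed to 1.51% of UMIs in Fit2-Mut and 1.55% in Fit2-WT plaque-associated cells, and to 1.30% in Fit2-Mut and 1.35% in Fit2-WT homeostatic cells.

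Set against the homeostatic cluster, the plaque-associated cluster had 10 of 30 members at least 1.5-fold higher in each library, against 13.4% of 10608 genes in Fit2-Mut and 14.7% of 10080 genes in Fit2-WT. Lower by the same factor were 1 member in Fit2-Mut (Lgmn) and 3 in Fit2-WT (Lgmn, Arsa and Tfeb), against 27.8% and 29.5% of genes. The median member was at 1.17-fold in Fit2-Mut and 1.23-fold in Fit2-WT, and the median gene at 0.838 in both. The clusters also differed in depth, with median UMIs per cell of 14793.5 and 7350.5 in Fit2-Mut and of 13148 and 6461 in Fit2-WT, plaque-associated first.

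Glycosidases were 5 of the 10 higher members in Fit2-Mut and 6 of the 10 in Fit2-WT. Hexa had 1301 CPM in plaque-associated and 659 CPM in homeostatic cells of Fit2-Mut, a fold of 1.98 (1.82 to 2.15), and 1329 CPM and 695 CPM in Fit2-WT, a fold of 1.91 (1.75 to 2.10). Gusb was 2.34-fold (2.002 to 2.74) higher in Fit2-Mut and 2.45-fold (2.04 to 2.97) higher in Fit2-WT. Gla reached 4.23-fold (2.10 to 9.94) in Fit2-Mut and 3.49-fold (1.73 to 8.23) in Fit2-WT, on 8 homeostatic UMIs in each library. In both libraries Glb1 and Naglu also passed 1.5-fold, while Man2b1 stayed near 1, at 0.98 in Fit2-Mut and 0.91 in Fit2-WT. Neu1 was at 0.96 in Fit2-Mut and 1.57 in Fit2-WT, with intervals that overlap.

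Among the membrane proteins, Cd63 and Cd68 stood out. Cd63 had 1724 CPM in plaque-associated and 604 CPM in homeostatic cells of Fit2-Mut, a fold of 2.85 (2.62 to 3.11). In Fit2-WT it had 2115 CPM and 633 CPM, a fold of 3.34 (3.04 to 3.68). Cd68 was 2.17-fold (1.98 to 2.39) higher in Fit2-Mut and 2.13-fold (1.93 to 2.36) higher in Fit2-WT. Lamp1 was only 1.26-fold and 1.24-fold higher in Fit2-Mut and Fit2-WT, and Lamp2 1.12-fold and 1.06-fold. Scarb2 was lower, at 0.79 (0.67 to 0.93) in Fit2-Mut and 0.76 (0.64 to 0.91) in Fit2-WT, and so was Laptm5, at 0.93 (0.88 to 0.99) in Fit2-Mut and 0.92 (0.86 to 0.98) in Fit2-WT. Both the size and the direction of the difference thus varied among the membrane proteins.

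Legumain ran the other way. Lgmn had 1352 CPM in plaque-associated and 2831 CPM in homeostatic cells of Fit2-Mut, a fold of 0.48 (0.46 to 0.50), and 1279 CPM and 2962 CPM in Fit2-WT, a fold of 0.43 (0.41 to 0.45). Psap was also lower in plaque-associated cells, at 0.80 (0.75 to 0.85) in Fit2-Mut and 0.77 (0.71 to 0.82) in Fit2-WT, short of the size rule. Tfeb was at 0.70 (0.50 to 1.01) in Fit2-Mut and 0.44 (0.31 to 0.64) in Fit2-WT. Galc was higher, at 2.13 (1.40 to 3.37) in Fit2-Mut and 3.35 (1.92 to 6.37) in Fit2-WT, and so was Creg1, at 1.69 (1.54 to 1.86) in Fit2-Mut and 1.87 (1.67 to 2.09) in Fit2-WT.

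**Figure D3:**
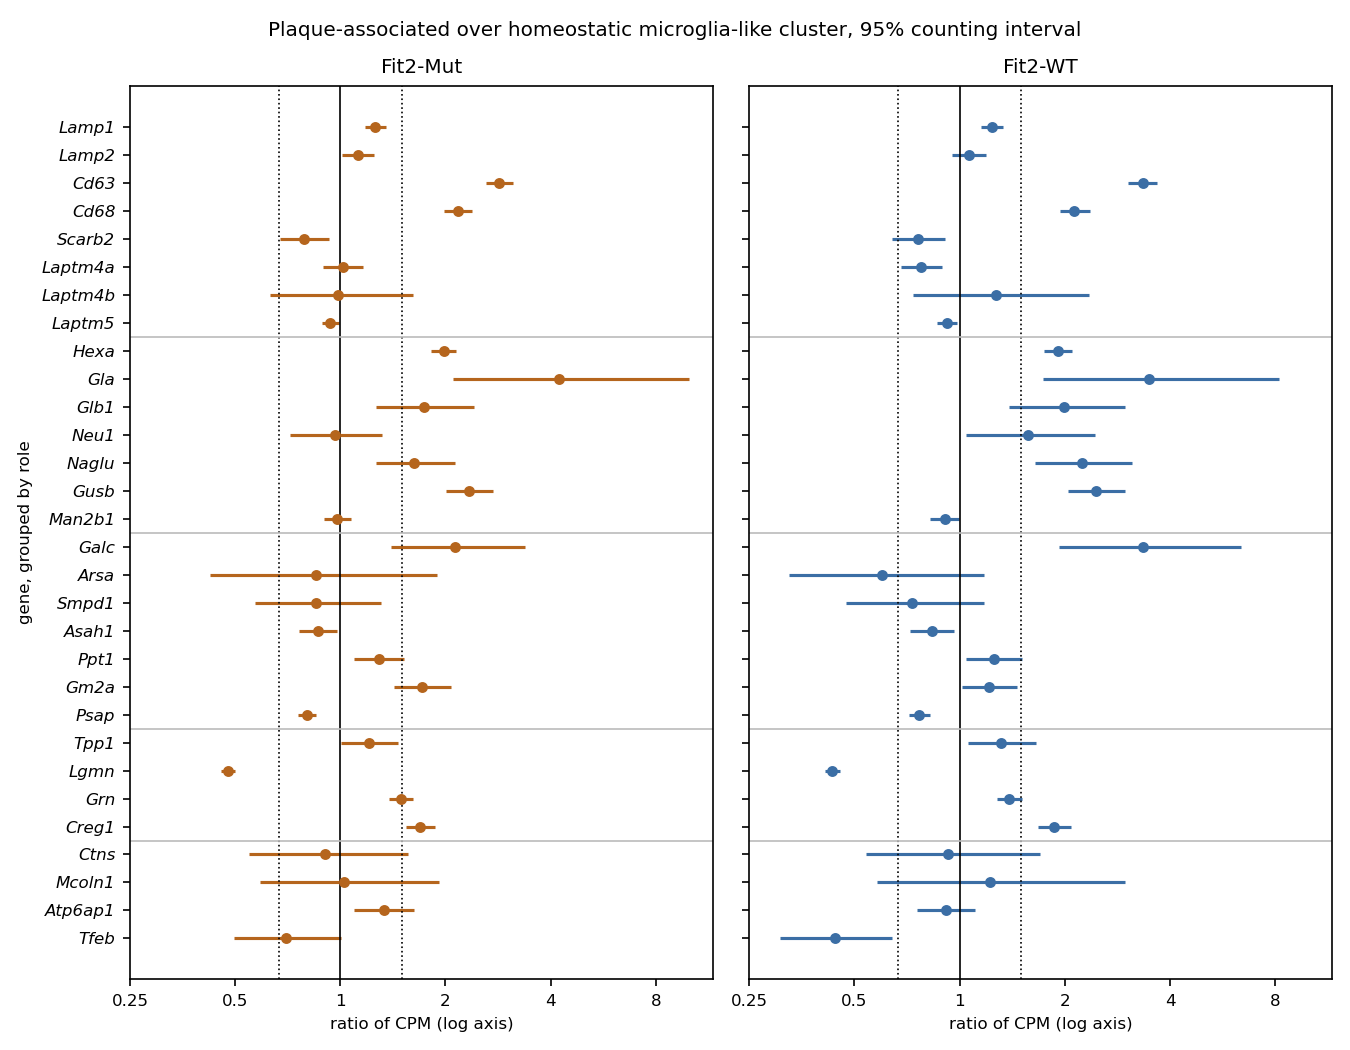
Ratio of CPM in the plaque-associated over the homeostatic microglia-like cluster for each of the 30 genes, on a log axis, with Fit2-Mut on the left and Fit2-WT on the right; bars are 95% counting intervals and dotted lines mark 1.5-fold either way. Cd63, Cd68, Hexa, Gla, Gusb and Galc lie to the right in both libraries and Lgmn lies far to the left.

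The question of the design, what differs in macrophages with disrupted Fit2, was addressed first in the microglia-like cells (576 Fit2-Mut and 550 Fit2-WT cells). No member differed by 1.5-fold in either direction between the libraries, against 11.8% of 11991 genes in these cells (8.21% higher and 3.61% lower in Fit2-Mut). A ratio above 1 was found for 15 of 30 members, against 62.9% of genes, and the median log2 ratio was -0.01, against 0.07 over all genes. The counting interval lay above 1 for 5 members (13.8% of genes) and below 1 for 6 (5.14% of genes). Because there is 1 library per genotype, these values compare 2 libraries and cannot be told apart from differences between animals or preparations.

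Cd63 had the largest difference among the members whose interval leaves out 1. It had 11107 UMIs (1528 CPM) in Fit2-Mut and 10896 UMIs (1889 CPM) in Fit2-WT microglia-like cells, a ratio of 0.809 (0.788 to 0.831). The Fit2-Mut level was lower, and the intervals of the 2 levels do not overlap. Within the plaque-associated cluster it had 1724 CPM in Fit2-Mut and 2115 CPM in Fit2-WT, a ratio of 0.815. Within the homeostatic and the Malat1-low clusters the ratios were 0.955 and 0.990, with intervals that include 1. In the cycling cluster the ratio was 0.319, with 4 cells on the Fit2-WT side, and without that cluster the ratio over all microglia-like cells was 0.838.

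RNA of other cells also differed between the libraries. Choroid plexus markers summed to 3046 CPM in Fit2-Mut and 5628 CPM in Fit2-WT microglia-like cells. Choroid plexus-like cells had less Cd63 than microglia-like cells in both libraries, and the free RNA had 510 CPM of it in Fit2-Mut and 433 CPM in Fit2-WT. Free RNA was estimated at 4.91% of UMIs in Fit2-Mut and 7.23% in Fit2-WT, and with it subtracted the Cd63 ratio was 0.789.

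Cd68, whose product is a common marker of phagocytic activity, had 1036 CPM in Fit2-Mut and 1159 CPM in Fit2-WT, a ratio of 0.894 (0.865 to 0.924). Lamp1 had 1276 CPM in Fit2-Mut and 1377 CPM in Fit2-WT, a ratio of 0.927 (0.899 to 0.955), and within the Malat1-low cluster it turned to 1.12. Among soluble proteins, Creg1 was at 0.924 (0.890 to 0.961), Grn at 0.932 (0.901 to 0.964) and Hexa at 0.948 (0.919 to 0.979). All 6 lower members had at least 4905 UMIs in each library, so the counting intervals are narrow, and none of the 6 was below 0.809 of the Fit2-WT level.

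On the higher side, Laptm5 had 1491 CPM in Fit2-Mut and 1377 CPM in Fit2-WT, a ratio of 1.08 (1.05 to 1.11). Lgmn had 1550 CPM in Fit2-Mut and 1442 CPM in Fit2-WT, a ratio of 1.08 (1.05 to 1.11). Gusb was at 1.09 (1.03 to 1.16) and Asah1 at 1.08 (1.01 to 1.16). Within clusters, Lgmn was at 1.33 (1.19 to 1.47) in the Malat1-low cluster, 1.06 in the plaque-associated one and 0.956 (0.902 to 1.01) in the homeostatic one, so its excess was not shared by the homeostatic cells. Psap, at 1.04 in microglia-like cells, was on the other side of 1 when the libraries were scaled by TMM (0.986) or by the median of ratios (0.988). Of these 11 members, Psap was the one whose side of 1 differed under any of the alternatives tried.

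The remaining 19 members had intervals that include 1 in microglia-like cells. Their ratios ran between 0.905 for Arsa and 1.27 for Mcoln1. Mcoln1 rested on 110 Fit2-Mut and 69 Fit2-WT UMIs. Tfeb had 225 UMIs (31.0 CPM) in Fit2-Mut and 162 UMIs (28.1 CPM) in Fit2-WT, a ratio of 1.10 (0.897 to 1.36). Lamp2 was at 1.002 (0.954 to 1.05) and Atp6ap1 at 1.003 (0.918 to 1.095), intervals that hold counting error only. By role, the median log2 ratio was -0.05 for membrane proteins, -0.07 for glycosidases, -0.02 for lipid genes, -0.04 for proteases and glycoproteins and 0.07 for transport, acidification and control.

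**Figure D4:**
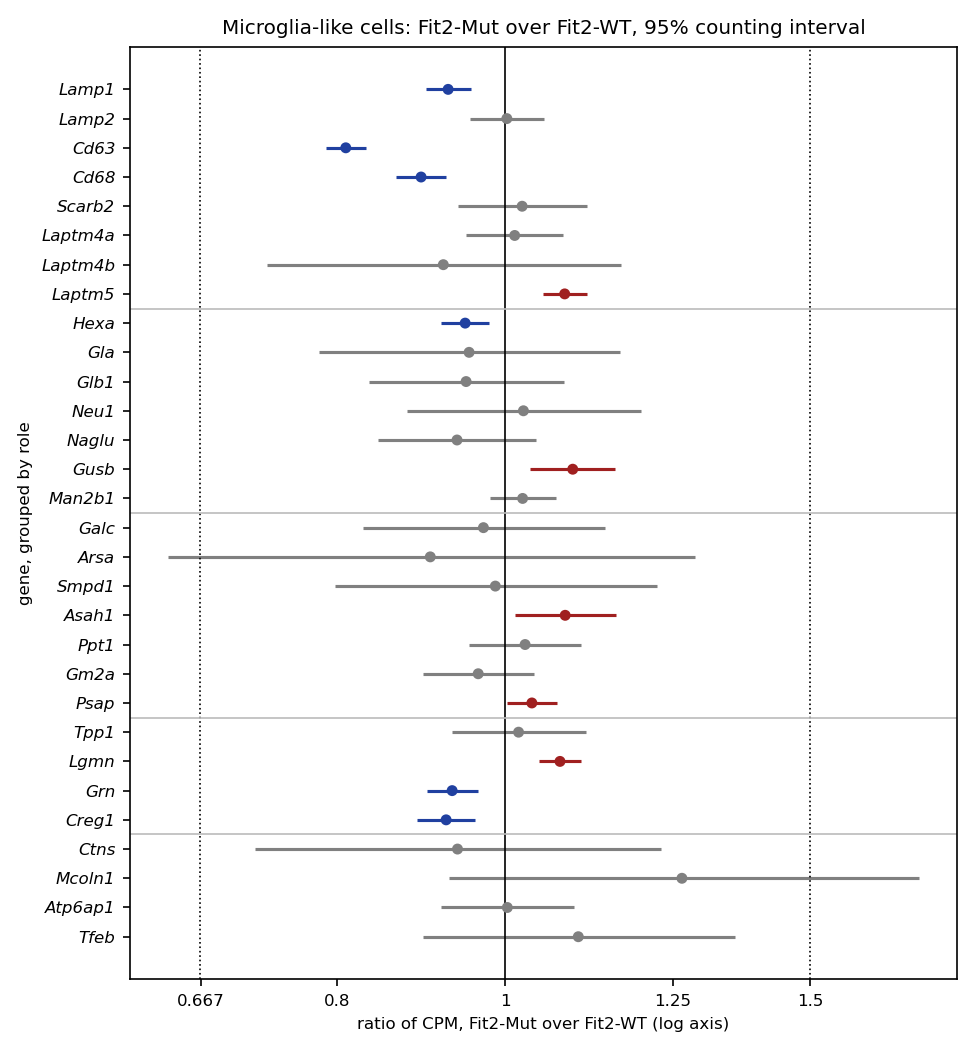
Ratio of CPM, Fit2-Mut over Fit2-WT, in microglia-like cells for each of the 30 genes on a log axis, with 95% counting intervals; red intervals lie above 1, blue ones below 1 and grey ones include 1, and dotted lines mark 1.5-fold either way. All points lie between the dotted lines, with Cd63 lowest at 0.809.

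Few of the other lysosome genes passed the size rule in microglia-like cells. Of 75 compared, 1 was at least 1.5-fold higher and 1 at least 1.5-fold lower, against 8.21% and 3.61% of all genes, and their median log2 ratio was -0.00. The higher one was Abca2, a lipid transporter of the endolysosomal membrane, with 91 UMIs in Fit2-Mut and 47 in Fit2-WT, a ratio of 1.54 (1.07 to 2.23). The lower one was Mcoln3, a relative of Mcoln1, on 7 Fit2-Mut and 19 Fit2-WT UMIs. Npc2, which binds cholesterol in the lysosome, was at 0.943 (0.920 to 0.968), and Lyz2, lysozyme, at 0.911 (0.890 to 0.933). Tfe3 and Mitf, relatives of Tfeb, were at 0.999 (0.836 to 1.19) and 1.01 (0.942 to 1.08).

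In astrocyte-like cells (1179 Fit2-Mut and 957 Fit2-WT cells), 1 member was past 1.5-fold higher (4.27% of genes) and 1 lower (3.91%; 8.18% either way). A ratio above 1 was found for 21 of 30 members, against 52.7% of genes, and 7 intervals lay above 1 (8.5% of genes) and none below (7.3%). The past-fold members were Gla, on 40 Fit2-Mut and 18 Fit2-WT UMIs, and Laptm5, on 18 and 20. Laptm4a had 333 CPM in Fit2-Mut and 274 CPM in Fit2-WT, a ratio of 1.22 (1.13 to 1.31). Lamp2 was at 1.18 (1.09 to 1.28), Cd63 at 1.16 (1.09 to 1.23) and Lamp1 at 1.12 (1.05 to 1.197). Gm2a was at 1.19 (1.07 to 1.33), Ppt1 at 1.18 (1.002 to 1.40) and Lgmn at 1.17 (1.01 to 1.35).

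The astrocyte-like differences moved with the make-up of the type, which held 4 clusters. A cluster led by Agt had 446 Fit2-Mut and 264 Fit2-WT cells, and another led by Lama3 had 231 Fit2-Mut and 285 Fit2-WT cells. With the clusters weighted alike in both libraries, an alternative added after the data were seen, Cd63 turned to 0.989 and Lamp1 to 0.966, and the median log2 ratio of the members was -0.04 in place of 0.10. Lamp2 kept 1.11, Ppt1 1.13, Lgmn 1.07 and Laptm4a 1.06 under that weighting, and Gm2a was at 1.01. Of 75 other lysosome genes compared in astrocyte-like cells, 3 were past 1.5-fold higher and 2 lower. They were Lyz2 at 1.91 (1.11 to 3.42), the amino acid transporter Slc36a1 at 1.73 (1.05 to 2.94), the sorting adaptor Gga3 at 1.57 (1.08 to 2.32), the nuclease Dnase2a at 0.631 (0.432 to 0.919) and Rragd at 0.665 (0.478 to 0.925). The depth also differed, with a median of 4746 UMIs in Fit2-Mut and 3899 in Fit2-WT astrocyte-like cells. A further cluster met all 8 astrocyte markers but stayed unnamed, because its leading genes held more oligodendrocyte precursor markers. Its 279 Fit2-Mut and 244 Fit2-WT cells were left out of the astrocyte-like type.

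In oligodendrocyte-like cells (929 Fit2-Mut and 736 Fit2-WT cells), 2 members were past 1.5-fold higher (5.18% of genes) and none lower (3.08%; 8.27% either way). Both of them, Cd68 and Laptm5, rested on at most 18 UMIs in a library. With free RNA subtracted, both were at the floor of 3 UMIs set for that step in each library. That setting therefore gives no ratio for them. Cells with at least 3 UMIs of microglia markers made up 5.92% of the type in Fit2-Mut and 3.13% in Fit2-WT. A ratio above 1 was found for 16 of 30 members, against 52.3% of genes. The interval lay above 1 for Cd63, at 1.10 (1.05 to 1.16), against 7.04% of genes. Choroid plexus markers summed to 2926 CPM in Fit2-Mut and 835 CPM in Fit2-WT oligodendrocyte-like cells, and with free RNA subtracted Cd63 was at 1.09. The interval lay below 1 for 4 members, against 6.12% of genes. Mcoln1 had 145 UMIs (14.1 CPM) in Fit2-Mut and 144 UMIs (19.6 CPM) in Fit2-WT, a ratio of 0.718 (0.566 to 0.9102). Tfeb was at 0.863 (0.764 to 0.975), Laptm4a at 0.866 (0.798 to 0.939) and Scarb2 at 0.922 (0.863 to 0.985). In cells thinned to 1000 UMIs, Tfeb was at 1.002 and Scarb2 at 1.04, so those 2 differences were not seen on the fewer counts that thinning leaves. All 4 genes of transport, acidification and control were below 1 here, with a median log2 ratio of -0.15.

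Of the compared types, choroid plexus-like cells, the secretory epithelium of the ventricles, gave the most UMIs over all genes. They numbered 1495 Fit2-Mut and 1442 Fit2-WT cells, and their summed member UMIs were fewer than those of microglia-like cells in both libraries. No member was past 1.5-fold higher (3.13% of genes) or lower (3.14%; 6.27% either way), and 5 intervals lay above 1 (5.27% of genes) and none below (8.43%). Psap, the most counted member there, had 15104 UMIs (910 CPM) in Fit2-Mut and 14414 UMIs (857 CPM) in Fit2-WT, a ratio of 1.06 (1.04 to 1.09). Atp6ap1 was at 1.13 (1.04 to 1.22), Lamp2 at 1.10 (1.06 to 1.14), Lgmn at 1.09 (1.01 to 1.17) and Laptm4a at 1.05 (1.01 to 1.09). Lgmn turned to 0.916 in thinned cells. A ratio above 1 was found for 23 of 30 members, against 47.3% of genes, and the median log2 ratio was 0.06.

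Endothelial-like cells (340 Fit2-Mut and 431 Fit2-WT cells) had 1 member past 1.5-fold higher, Tfeb (5.72% of genes), and 1 lower, Naglu (5.54%; 11.3% either way). The interval lay above 1 for Tfeb alone (4.27% of genes) and below 1 for Laptm4a alone (5.66%). Tfeb had 65 UMIs (41.8 CPM) in Fit2-Mut and 50 UMIs (26.9 CPM) in Fit2-WT, a ratio of 1.55 (1.06 to 2.29). Naglu had 10 UMIs in Fit2-Mut and 25 in Fit2-WT, a ratio of 0.478 (0.205 to 1.03) whose interval includes 1. Erythrocyte markers summed to 28864 CPM in Fit2-Mut and 104 CPM in Fit2-WT endothelial-like cells, and choroid plexus markers to 861 CPM in Fit2-Mut and 1837 CPM in Fit2-WT, and their part in these differences was not tested. The Tfeb ratio ran between 1.36 and 2.22 over the alternatives. Laptm4a, which is high in endothelium, was at 0.8999 (0.822 to 0.985), and at 1.03 in thinned cells. Of the other lysosome genes, Tfe3 was at 2.13 (1.16 to 4.02) and Ostm1, a subunit of the lysosomal chloride exchanger, at 1.65 (1.04 to 2.65). Gnptg, which helps add the mannose-6-phosphate tag, was at 0.588 (0.363 to 0.931), on 29 Fit2-Mut and 59 Fit2-WT UMIs.

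Ependymal-like cells (136 Fit2-Mut and 108 Fit2-WT cells) had 2 members past 1.5-fold lower, against 7.2% of genes, and none higher (7.77%; 15% either way). The interval lay above 1 for 1 member (5.94% of genes) and below 1 for 2 (5.56%). Tfeb had 32 UMIs in Fit2-Mut and 43 in Fit2-WT, a ratio of 0.575 (0.352 to 0.930), opposite in direction to endothelial-like cells. Grn had 6 UMIs in Fit2-Mut and 14 in Fit2-WT, a ratio of 0.331 (0.104 to 0.917), and 1.59 in thinned cells. Cd63 was at 1.12 (1.01 to 1.24), and 0.832 in thinned cells, so both stood on the other side of 1 on the fewer counts that thinning leaves. A ratio above 1 was found for 9 of 25 members compared, against 51.8% of genes, with all 5 compared glycosidases below 1. Choroid plexus markers summed to 2980 CPM in Fit2-Mut and 7510 CPM in Fit2-WT ependymal-like cells, and free RNA was estimated at 3.61% of UMIs in Fit2-Mut and 8.56% in Fit2-WT. With free RNA subtracted, Tfeb was at 0.558 and Cd63 at 1.11. Of the other lysosome genes, Lyz2 was higher at 1.93 (1.06 to 3.69), on 40 Fit2-Mut and 16 Fit2-WT UMIs, while Atp6v1e1, a subunit of the proton pump, was at 0.645 (0.502 to 0.826) and Rragd, a GTPase of nutrient sensing, at 0.648 (0.473 to 0.885).

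T cell-like cells (186 Fit2-Mut and 185 Fit2-WT cells) had 3 members past 1.5-fold higher, against 11.1% of genes, and 3 lower, against 7.12% (18.2% either way). The interval lay above 1 for Asah1 (6% of genes) and below 1 for Gm2a (4.62%), and 14 of 23 members compared were above 1 (56.3% of genes). The higher ones were Asah1, Lgmn and Cd68, and the lower ones Gm2a, Grn and Glb1, all on 47 UMIs or fewer in a library. Gm2a had 28 UMIs in Fit2-Mut and 47 in Fit2-WT, a ratio of 0.596 (0.360 to 0.972), and Asah1 had 22 UMIs in Fit2-Mut and 10 in Fit2-WT. For Cd68 and Lgmn, the 5 cells with most UMIs held 71.4% and 66.7% of the Fit2-Mut UMIs, against 85.7% and 70.0% of the Fit2-WT UMIs. In the same type, 7.53% of Fit2-Mut and 8.11% of Fit2-WT cells held at least 3 UMIs of microglia markers, and erythrocyte markers summed to 25232 CPM in Fit2-Mut and 24.3 CPM in Fit2-WT. The part of the erythrocyte RNA in these differences was not tested, and without the cells holding microglia markers Asah1 was at 2.26 and Gm2a at 0.638. With types called from each cell's marker share, Grn turned to 2.14 and Glb1 to 1.87 in T cell-like cells, and Gm2a was at 0.983. With doublets kept, Grn was at 1.83. In T cell-like cells 4 members had at least 100 UMIs together, with a median log2 ratio of 0.04. Laptm5, the most counted of them, had 404 UMIs in Fit2-Mut and 385 in Fit2-WT, a ratio of 1.05 (0.911 to 1.21). Psap had 92 UMIs (107 CPM) in Fit2-Mut and 117 UMIs (135 CPM) in Fit2-WT, a ratio of 0.787 with an interval that includes 1. Of the other lysosome genes, Rragc, a GTPase of nutrient sensing, was at 1.83 (1.003 to 3.46), Hgsnat, which acetylates heparan sulfate, at 0.559 (0.324 to 0.941), and the proton pump subunit Atp6v0a2 at 0.584 (0.353 to 0.949).

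**Figure D5:**
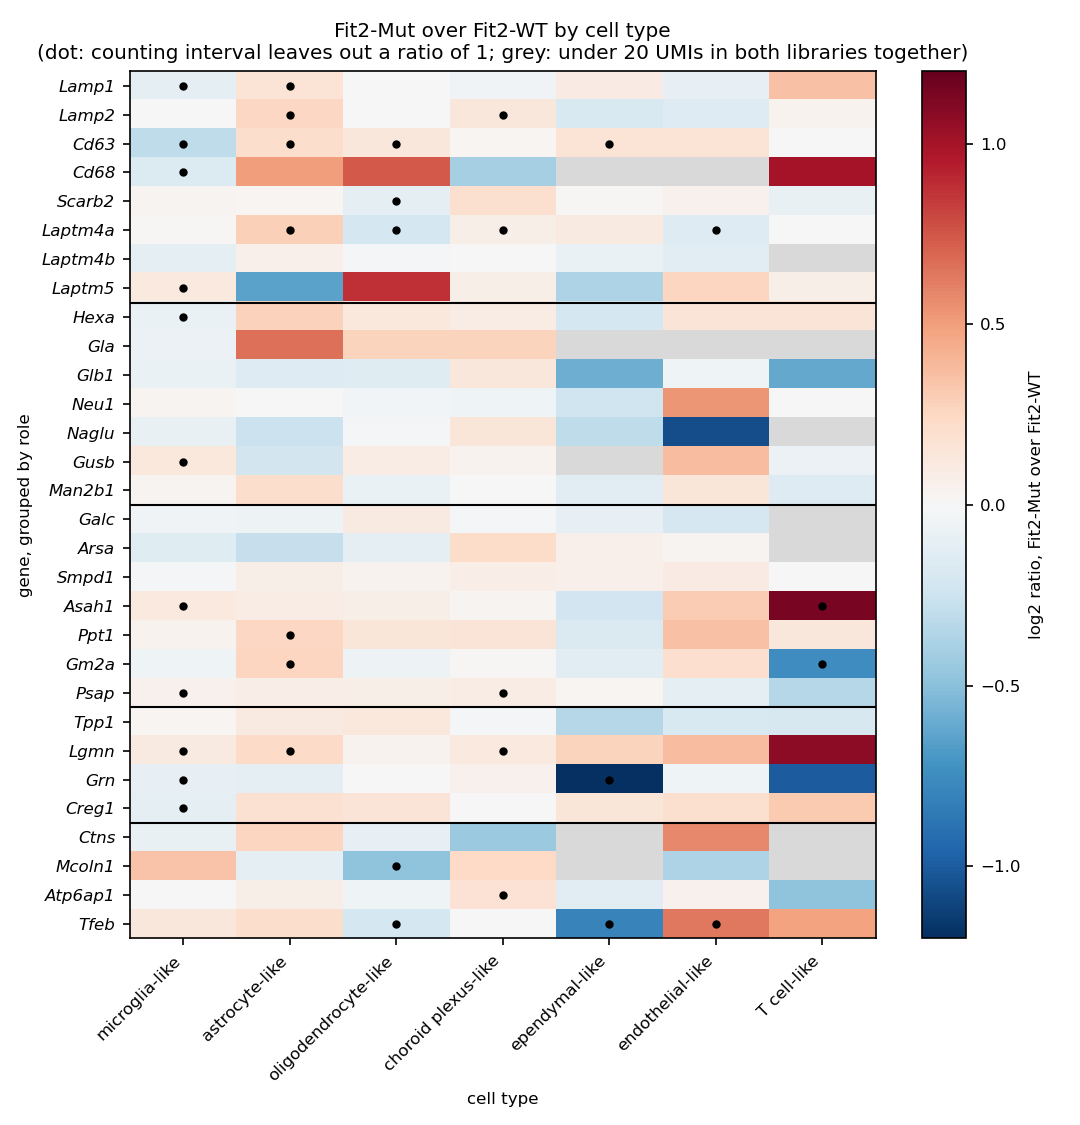
Log2 ratio of CPM, Fit2-Mut over Fit2-WT, for the 30 genes (rows) in the 7 compared cell types (columns); a dot marks a 95% counting interval that leaves out a ratio of 1, and grey cells had under 20 UMIs in both libraries together. Most cells are pale; the deep colours are in the T cell-like, ependymal-like and endothelial-like columns and in Cd68, Laptm5 and Gla of astrocyte-like or oligodendrocyte-like cells, where counts are small.

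Across the 7 types, which come from the same 2 libraries, Lgmn had a ratio above 1 in all 7, with the interval above 1 in 3 of them, and its ratios ran between 1.03 in oligodendrocyte-like and 2.10 in T cell-like cells. Grn was above 1 in 2 of 7 types, Glb1 in 1 of 7 and Smpd1 in 6 of 7, with Smpd1 ratios between 0.987 and 1.07. Cd63 was lower in Fit2-Mut microglia-like cells and higher in Fit2-Mut astrocyte-like, oligodendrocyte-like and ependymal-like cells, the astrocyte-like and ependymal-like values turning under the settings named above. No member had a ratio past 1.5-fold with an interval that leaves out 1 in more than 1 type in the same direction.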

How the data were processed

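Single-cell 3' RNA sequencing was done on 1 Fit2-Mut and 1 Fit2-WT library. The deposited values are raw UMI counts per gene and barcode, made with Cell Ranger 7.1.0 per the file headers (7.0.0 per the submitters' processing notes) against mm10. The deposited tables held all barcodes with a UMI. Cells needed at least 1000 UMIs and 500 genes and at most 10% mitochondrial UMIs, and doublets were removed with the Scrublet method. Clusters (2000 variable genes, 30 components, 15 neighbours, Leiden resolution 1) were made with scanpy 1.11.5, leidenalg 0.10.2, igraph 0.11.9 and scikit-learn 1.9.0, without the 30 members or the 81 other lysosome genes. A name needed 3 or more markers of the type, and a share of 0.5 or more of its list, to be 2-fold above other cells, so shares and levels rest on rebuilt names.

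UMIs were summed per library and type. Types with at least 100 cells in each library and genes with at least 20 UMIs in both together were compared. The shares over all genes were not matched to the members for UMI count. Exact Poisson, conditional binomial and Clopper-Pearson intervals at 95% (scipy 1.17.1, numpy 2.4.6, pandas 2.3.3) cover counting error only, and the ratio code was tested on simulated data. TMM factors came from edgeR 4.0.16, and figures from matplotlib 3.10.9. All 30 members are accounted for. Of the other lysosome genes, up to 3 each way per type are named with at least 50 UMIs together, a ratio past 1.5 and an interval leaving out 1, plus Npc2, Lyz2, Tfe3 and Mitf in microglia-like cells (a further gene of that rule is not reported here); Mcoln3 was named after its values were seen. The members and lists were chosen with earlier results of these data known. Alternatives covered cell filters, doublets, scaling, cell weighting, thinning, free RNA, cluster resolution, type naming and single clusters.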

Additional observations from a re-analysis of the deposited data

Results flagged for a closer look

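For 5 members the counting interval of the Fit2-Mut over Fit2-WT ratio lay above 1 in at least 1 cell type and below 1 in at least 1 other. How many of all genes have intervals on both sides in this way was not worked out. This count therefore has no background beside it, and whether it is unusual cannot be told. The differences between types were not tested, since there is 1 library per genotype. Lamp1 was at 1.12 in astrocyte-like and 0.927 in microglia-like cells. Cd63 was at 1.16 in astrocyte-like, 1.12 in ependymal-like and 1.10 in oligodendrocyte-like cells, and at 0.809 in microglia-like cells. Laptm4a was at 1.22 in astrocyte-like and 1.05 in choroid plexus-like cells, and at 0.8999 in endothelial-like and 0.866 in oligodendrocyte-like cells. Gm2a was at 1.19 in astrocyte-like and 0.596 in T cell-like cells. Tfeb was at 1.55 in endothelial-like cells, and at 0.575 in ependymal-like and 0.863 in oligodendrocyte-like cells.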

How the results depend on the processing

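No member passed 1.5-fold in microglia-like cells under any alternative except thinning to 1000 UMIs, which gave 1 (Gla, 1.53). The members' median log2 ratio there ran between -0.08 and 0.01 over all settings, and Cd63 between 0.770 and 0.863 over 14 alternatives. Psap turned to 0.986 with TMM scaling and to 0.988 with median of ratios scaling. With types called from each cell's marker share, the median log2 ratio was 1.03 in T cell-like and 0.26 in ependymal-like cells. In the astrocyte-like cells, weighting clusters alike in both libraries turned Lamp1 to 0.966 and Cd63 to 0.989. Thinning turned Lgmn to 0.916 in choroid plexus-like, Laptm4a to 1.03 in endothelial-like, Cd63 to 0.832 and Grn to 1.59 in ependymal-like, and Scarb2 to 1.04 and Tfeb to 1.002 in oligodendrocyte-like cells. The cause of these changes was not tested. The longer promoter motif was in 2 members, against 7 for the E-box. Microglia-like cells were highest for 12 to 19 members in Fit2-Mut and for 14 to 19 in Fit2-WT. Resolutions 0.5 and 2 gave no pair of clusters named plaque-associated and homeostatic; at 2, the clusters with the highest list shares gave 11 higher members in Fit2-Mut and 10 in Fit2-WT.

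No paired analysis was possible because each genotype has 1 library. Intervals hold counting error only, so differences between animals, dissections or library preparations cannot be told apart from the genotype. Members with few UMIs in a type, among them Arsa, Ctns and Mcoln1, allow only wide intervals.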
